A study of Mus musculus with 9 samples.

Results

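Cst8, Cst12 and 9230104L09Rik are cystatin genes of mouse chromosome 2. They were taken by gene symbol and are 3 of the 2462 genes in the deposited table. RefSeq lists 9230104L09Rik under the symbol Cstdc2. The study sequenced messenger RNA of the caput, the proximal end of the epididymal duct where sperm maturation begins, in 9 libraries, 3 from each of 3 groups. WT libraries came from wild-type mice with no treatment. EDL libraries came from wild-type mice whose efferent ducts had been ligated, so that testicular fluid and sperm do not enter the epididymis. W/Wv libraries came from untreated mice of the W/Wv genotype, which carries mutant Kit alleles and leaves the testis with very few germ cells but its ducts intact. All mice were 14 weeks old. The labels name no sham operation and no time since ligation, so effects of surgery and of the block cannot be told apart. They also do not say whether the libraries of a group came from separate animals, and p-values measure only the spread between these libraries.

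Cystatins are small proteins that block papain-like cysteine proteases such as the cathepsins. The secreted type, whose founder is cystatin C (Cst3), has given rise to a rodent cluster of genes expressed mostly in the male reproductive tract. Cst8 encodes CRES, for cystatin-related epididymal spermatogenic protein, which is secreted into the lumen of the proximal epididymis and also made by germ cells of the testis. It lacks sites that other cystatins need to block papain-like proteases, can inhibit the prohormone convertase Pcsk2 in vitro, and forms amyloid in the epididymal lumen of the mouse. Cst12 (CRES3) belongs to the same subgroup, and less is known of 9230104L09Rik. The proximal caput depends on factors that arrive from the testis in the luminal fluid, a route called lumicrine signalling.

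The members lie within 61.6 kb, in a group of 9 cystatin genes that spans 125 kb (GRCm38.p6). Along the chromosome the order is Cstl1, Cst11, Cstdc1, Cst12, Cst8, Cst13, Cst9, 9230104L09Rik and Cst3. Cst12 (gene ID 69362) occupies bases 148789365 to 148793432 and Cst8 (gene ID 13012) bases 148798839 to 148805596, both on the plus strand. 9230104L09Rik (gene ID 77705) lies on the minus strand at 148844620 to 148850962. In the GENCODE M21 models, Cst12 and 9230104L09Rik have 3 exons, all coding, and Cst8 has 4 exons, of which 3 are coding. Their coding lengths without the stop codon are 384 bases for Cst12, 426 for Cst8 and 399 for 9230104L09Rik. Coding sequences of the members were 60.1% to 64.9% identical over aligned bases, and the longest run of bases shared by the transcripts of 9230104L09Rik and any other cystatin of the cluster was 20 bases. Runs that Cst8 or Cst12 shared with another transcript of the cluster were no longer than 15 bases.

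The promoters of the members are shown because the genes are neighbours that were all high in WT and far lower in both models. Those of Cst12, Cst8 and 9230104L09Rik, and that of Cst3 as the member of the cluster that changed little, were read from RefSeq (GRCm38.p6), from 250 bases before to 50 bases after the annotated start, 5′ to 3′ on the strand of the gene. Capitals mark every match, on either strand, to the motifs searched. These were CCGGAAGT and the shorter AGGAAG for ETS factors, TTGCGCAA and the looser TTGCNNAA for C/EBP factors, AGAACA for one arm of an androgen receptor site, GGGCGG for SP1, and TATAAA for the box of that kind near a start site. A match to TTGCGCAA is also a match to TTGCNNAA. The Cst12 window is chr2:148789115-148789414 on the plus strand, that of Cst8 chr2:148798589-148798888 on the plus strand, that of 9230104L09Rik (Cstdc2) chr2:148850885-148851184 on the minus strand, and that of Cst3 chr2:148875463-148875762 on the minus strand.
Cst12: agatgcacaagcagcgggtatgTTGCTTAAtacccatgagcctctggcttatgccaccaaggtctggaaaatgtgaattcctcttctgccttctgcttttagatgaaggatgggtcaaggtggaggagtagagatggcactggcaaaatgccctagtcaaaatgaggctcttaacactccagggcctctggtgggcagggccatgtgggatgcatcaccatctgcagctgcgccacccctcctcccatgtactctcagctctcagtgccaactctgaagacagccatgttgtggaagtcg
Cst8: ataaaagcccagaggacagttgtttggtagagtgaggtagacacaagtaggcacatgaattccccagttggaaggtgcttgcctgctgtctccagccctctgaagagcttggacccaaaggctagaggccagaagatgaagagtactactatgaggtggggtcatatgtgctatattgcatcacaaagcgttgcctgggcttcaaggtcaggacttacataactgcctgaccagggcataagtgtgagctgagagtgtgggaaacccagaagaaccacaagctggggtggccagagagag
Cstdc2: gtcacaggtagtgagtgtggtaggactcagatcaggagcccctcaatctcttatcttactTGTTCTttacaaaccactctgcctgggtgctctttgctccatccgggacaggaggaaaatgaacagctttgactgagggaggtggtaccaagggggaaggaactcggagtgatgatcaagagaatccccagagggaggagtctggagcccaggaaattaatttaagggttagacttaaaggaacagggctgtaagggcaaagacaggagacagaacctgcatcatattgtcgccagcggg
Cst3: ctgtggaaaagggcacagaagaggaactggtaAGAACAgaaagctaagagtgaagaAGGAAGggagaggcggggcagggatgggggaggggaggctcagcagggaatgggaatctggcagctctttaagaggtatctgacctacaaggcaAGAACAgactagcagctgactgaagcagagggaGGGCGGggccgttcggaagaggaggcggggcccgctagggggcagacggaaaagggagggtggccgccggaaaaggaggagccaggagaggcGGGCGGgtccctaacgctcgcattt

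The Cst12 window held 1 match, TTGCTTAA to TTGCNNAA at -228 to -221 from the start, a motif found in 10.8% of 32851 RefSeq promoters. That of 9230104L09Rik held 1 match, to AGAACA on the opposite strand at -190 to -185, against 19% of promoters. None of the motifs searched was in the Cst8 window. The Cst3 window had matches to AGGAAG, a motif in 35.4% of promoters, to AGAACA and to GGGCGG, a motif in 35.7%. The members had few CpG dinucleotides, 3 for Cst12, 1 for Cst8 and 4 for 9230104L09Rik, against 13 for Cst3 and a median of 7 over all promoters. GC content was 50.3% to 52.7% in the members, at or below the median of 52.7%. CCGGAAGT was in 3.89% of promoters, TTGCGCAA in 0.183% and TATAAA in 13.6%, and none of these was in the 4 windows. These matches describe the letters of the windows and were not linked to binding.

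The table held 3536245 to 4793224 reads per library. The median worth of 1 read over genes was 0.0161 to 0.0222 FPKM, a level scaled to transcript length and library depth. For the short transcripts of the members 1 read was worth more, such as 0.152 FPKM for Cst12 in W/Wv library 3. Intervals and floors below cover counting error only. Differences were tested with limma on log2(FPKM + 1) for 2013 genes with at least 1 FPKM in 3 libraries, which included all 3 members. Cst8 reached this minimum only through WT, so its call against WT was bound to be a fall, while Cst12 and 9230104L09Rik passed in a model as well. Of these genes, 75.3% changed between EDL and WT, 70.3% between W/Wv and WT and 14% between W/Wv and EDL, at an adjusted p of 0.05. WT library 3 stood apart in Lcn5, a lipocalin of the caput, with 1613 FPKM against 308 and 186 in WT libraries 1 and 2 and 7246 to 9906 in the models. At 5 FPKM or more, 6 genes, Lcn5 among them, were at least 2-fold above both other WT libraries in library 3, and 4 in library 2. For the members, the values of WT library 3 lay within the range of the other WT libraries or, for Cst8, close below the lower of them. No member's call changed without WT library 3. Gpx5, a secreted peroxidase that marks caput principal cells, was at 26828 ± 1869 FPKM in WT, 26326 ± 1203 in EDL and 23125 ± 795 in W/Wv (SD, n = 3 each).

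In WT the 3 members were among the most abundant messages of the table. 9230104L09Rik ranked 4th, Cst12 5th and Cst8 8th of 2462 genes by mean FPKM, a level per length. Together they took 3.93%, 3.28% and 3.61% of the table's reads in WT libraries 1, 2 and 3. In EDL the share was 0.0360%, 0.0291% and 0.0323%, and in W/Wv it was 0.00198%, 0.00581% and 0.0014%. In each model all 3 members were lower than in WT and no values overlapped with WT. Over all genes tested, 35.9% fell in EDL and 35% in W/Wv, and the model lay below WT without overlap for 37.6% and 36.3%. The 2 comparisons share the WT libraries. In these bulk samples, fewer cells of a type and less RNA per cell cannot be told apart.

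**Figure D1:**
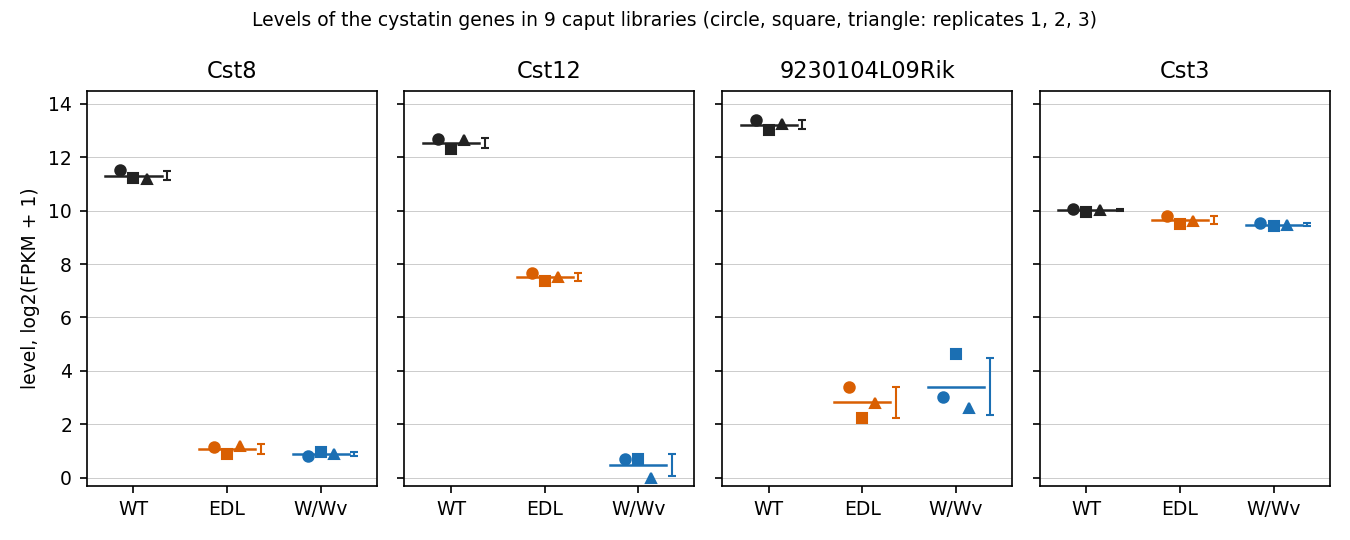
Level of each cystatin gene, as log2(FPKM + 1), in the 9 libraries. Points are libraries, horizontal lines are group means and side bars are SDs (n = 3 each). Over the libraries of both models Cst8 is at 0.773 to 1.29 FPKM and 9230104L09Rik at 3.74 to 23.5. Cst12 stays at 164 to 202 FPKM in EDL and is below 1 FPKM in W/Wv, and Cst3 moves little.

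Cst8, the gene of CRES, was at 2943, 2384 and 2345 FPKM in WT libraries 1, 2 and 3. It was at 1.2, 0.826 and 1.29 FPKM in EDL and at 0.773, 0.931 and 0.833 in W/Wv. Every library of the models lay far below every WT library, and the values of EDL and W/Wv overlapped. Behind the model levels were 37 reads in the 3 EDL libraries (95% exact Poisson interval 26.1 to 51.0) and 24 in the 3 W/Wv libraries (15.4 to 35.7), against 76691 in WT. Cst8 fell from a mean of 2557 ± 335 FPKM in WT to 1.11 ± 0.249 in EDL, 0.0433% of the WT level. On the log2 scale of FPKM + 1 this was a difference of -10.24 with an SE of 0.10 (limma adjusted p = 1.2e-13). In W/Wv it was at 0.846 ± 0.0793 FPKM, 0.0331% of the WT level, a change of -10.43 (SE 0.10, limma adjusted p = 9.9e-14). This scale understates the change of genes near 0, and edgeR on the recovered reads gave -11.18 and -11.55. In rank by mean FPKM, Cst8 went from 8th in WT to 1872nd in EDL and 1916th in W/Wv. Between the models the change was -0.19 (SE 0.10, limma adjusted p = 0.26), which did not pass the test.

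9230104L09Rik had the highest WT level of the 3. Its values were 10651, 8373 and 9809 FPKM in WT, 9.54, 3.74 and 5.97 in EDL, and 7.16, 23.5 and 5.03 in W/Wv. Both models lay below every WT library and overlapped with each other, with W/Wv library 2 the highest of the 6. The reads were 260299 in WT, 197 in EDL (95% exact Poisson interval 170 to 227) and 310 in W/Wv (276 to 347), of which 207 were from W/Wv library 2. The gene fell from 9611 ± 1152 to 6.42 ± 2.93 FPKM in EDL, 0.0668% of the WT level and a log2 change of -10.41 (SE 0.56, limma adjusted p = 4.0e-06). In W/Wv it was at 11.9 ± 10.1 FPKM, 0.124% of the WT level and a log2 change of -9.81 (SE 0.56, limma adjusted p = 5.9e-06). W/Wv minus EDL was 0.60 (SE 0.56, limma adjusted p = 0.55) with all libraries and -0.0043 without W/Wv library 2, so its sign rested on that library. Only 9230104L09Rik, Mir8102 and Defb38 were at least 2-fold above both other W/Wv libraries in library 2 at 5 FPKM or more. Cst8 and Cst12 were below 1 FPKM in every W/Wv library, so they could not meet that minimum.

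Cst12 had 3.04% of its mean WT level in EDL, against 0.0433% for Cst8 and 0.0668% for 9230104L09Rik. It was at 6542, 5123 and 6356 FPKM in WT libraries 1, 2 and 3. In EDL it was at 202, 164 and 183 FPKM, and in W/Wv at 0.644, 0.602 and 0. The 3 groups did not overlap, with WT highest, EDL between and W/Wv lowest. W/Wv library 3 had 0 reads, which allows up to 3 reads or 0.455 FPKM, and the other 2 had 4 reads each. EDL held 4155 reads of the gene and WT 122416. Against WT at 6007 ± 771 FPKM, EDL at 183 ± 19 was 32.9-fold lower, with a log2 difference of -5.03 and an SE of 0.19 (limma adjusted p = 1.6e-08). W/Wv at 0.415 ± 0.36 FPKM had 0.00691% of the WT level, a change of -12.08 (SE 0.19, limma adjusted p = 6.2e-11). That mean rests on 8 reads, whose 95% exact Poisson interval is 3.45 to 15.8. At rank 56 of 2462 by mean FPKM, Cst12 remained one of the more abundant messages in EDL, whereas in W/Wv it ranked 2052nd.

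**Figure D2:**
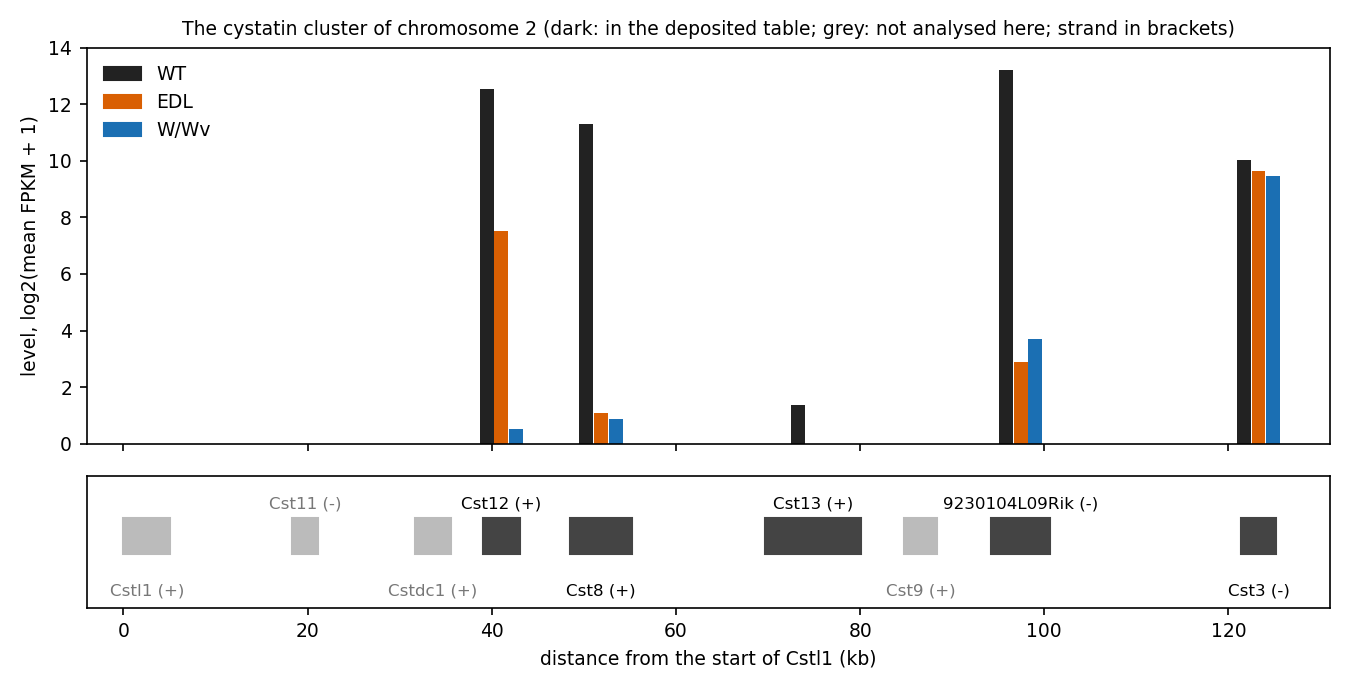
Upper panel, level of each cystatin gene of the cluster that is in the table, as log2 of the mean FPKM of 3 libraries plus 1, drawn without error bars at the position of the gene. Lower panel, extent and strand of the 9 cystatin genes, with distance in kb from the start of Cstl1. Cst12 and Cst8, neighbours on the plus strand, differ in EDL, where Cst12 has a mean of 183 FPKM and Cst8 of 1.11.

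The direct comparison of the models, which uses no WT library in its difference, asked whether ligation and the W/Wv genotype left the same amount of each message. Of the 3 members only Cst12 passed the test, lower in W/Wv, against 7% of all genes tested that were lower. Equal amounts cannot be read from the other members not passing. Cst8 rested on 37 reads in EDL and 24 in W/Wv, and 9230104L09Rik had an SE of 0.56. The change of Cst12, -7.05 (SE 0.19, limma adjusted p = 1.3e-07), was the lowest of the 2013 genes. The next lowest of the genes that passed were Gm4926 at -1.79, Dpp7, a dipeptidyl peptidase of intracellular vesicles, at -1.54, and Tescl at -1.24. Unlike Cst12, these had higher means in EDL than in WT. Those were 18.5 against 1.33 FPKM for Gm4926, 12.8 against 3.09 for Dpp7 and 3.62 against 0.265 for Tescl. In FPKM, the EDL mean of Cst12 was 440-fold that of W/Wv. Every EDL library was above every W/Wv library, as for 19.8% of all genes tested, and the change ranged from -8.93 to -6.82 over 17 alternatives, all past the threshold. Of 650 genes lower than WT in both models, 24 had less in W/Wv than in EDL, 55 had more and 571 did not pass. The 2 models were set against the same WT libraries. Of the 24, Cst12, Camk2b and Fga were lower by 2-fold or more, and of the 55, Crisp1 was higher by as much.

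**Figure D3:**
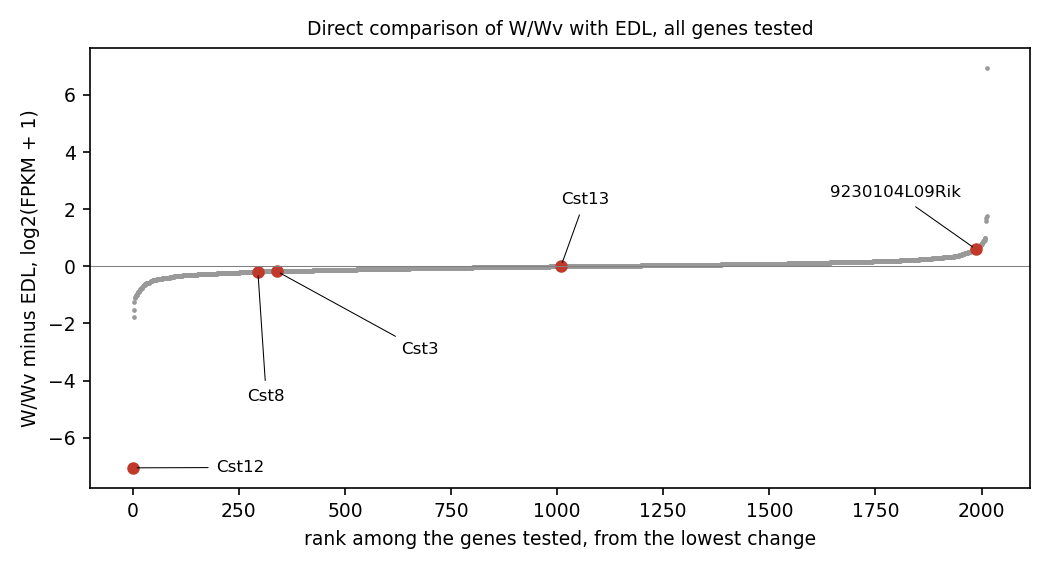
W/Wv minus EDL on the log2(FPKM + 1) scale for each of the 2013 genes tested, ranked from the lowest. Cst12, at -7.05, lies apart from the next lowest gene that passed the test, at -1.79. Cst8 at -0.19, Cst3 at -0.17, Cst13 at 0 and 9230104L09Rik at 0.60 lie in the body or toward the upper end.

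Cst12 had 2.22, 2.15 and 2.71 times the FPKM of Cst8 in WT, 168, 198 and 141 times in EDL, and 0.832, 0.647 and 0 times in W/Wv. The 3 groups did not overlap. On the log2 scale of FPKM + 1 the ratio was 1.23 ± 0.18 in WT, 6.45 ± 0.11 in EDL and -0.42 ± 0.40 in W/Wv (SD, n = 3 each). The difference was 5.22 for EDL minus WT and -6.87 for W/Wv minus EDL, each with an exact two-sided permutation p of 0.1, the smallest that 3 against 3 libraries allow. Their size depends on the constant added to levels near 0, and adding 0.1 FPKM gave 6.03 and -8.59. The ratio of Cst12 to 9230104L09Rik was 0.614, 0.612 and 0.648 in WT, 21.1, 43.8 and 30.6 in EDL, and 0.0899, 0.0256 and 0 in W/Wv. Its log2 value was -0.68 ± 0.05, 4.70 ± 0.43 and -2.95 ± 0.87 in that order of groups, and W/Wv minus EDL was -7.65 (exact two-sided permutation p = 0.1, again the smallest possible), or -9.59 with 0.1 FPKM added. These 3 tests cannot pass 0.05 in this design, whatever the size of the difference. The ratio of 9230104L09Rik to Cst8 was 3.62, 3.51 and 4.18 in WT, 7.93, 4.53 and 4.61 in EDL, and 9.26, 25.3 and 6.04 in W/Wv. Both models lay above WT in that ratio and overlapped each other. It was not tested, and its model values rest on 7 to 15 reads of Cst8 per library.

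**Figure D4:**
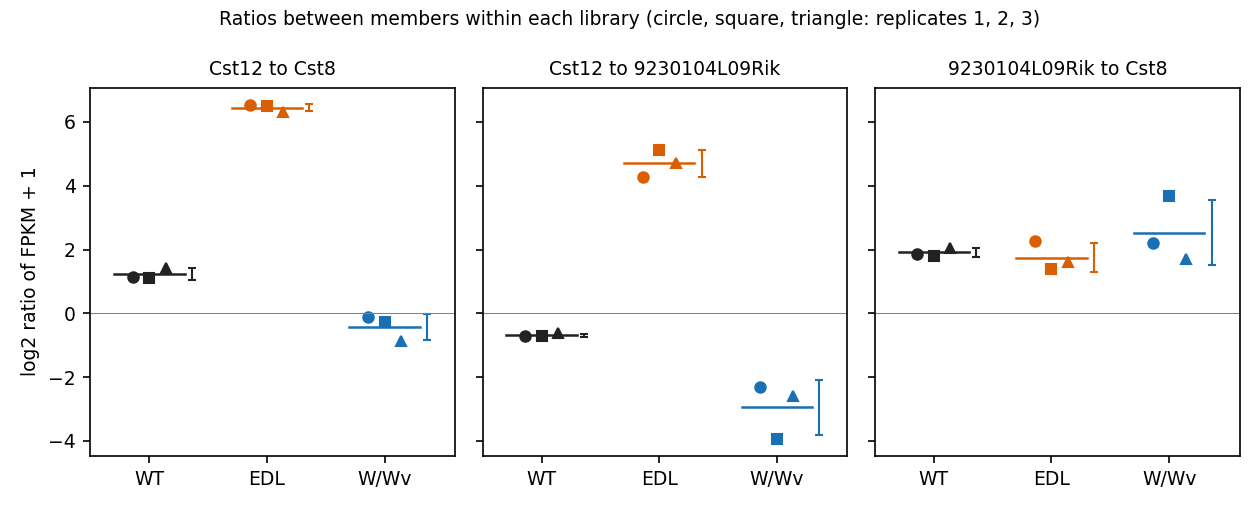
Log2 ratio of FPKM + 1 between members in each library. Points are libraries, lines are group means and side bars are SDs (n = 3 each). The ratios with Cst12 separate the 3 groups, with EDL highest and W/Wv lowest, whereas the log2 ratio of 9230104L09Rik to Cst8 overlaps between groups when 1 FPKM is added to each level.

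The other cystatins of the cluster gave a contrast. Cst3, or cystatin C, a secreted inhibitor made in most tissues, was at 1074, 999.7 and 1044 FPKM in WT, 885, 732 and 788 in EDL, and 735, 687 and 713 in W/Wv. Both models lay below WT, and EDL and W/Wv overlapped at 1 library. Cst3 kept 77.2% of its WT level in EDL, a log2 difference of -0.38 with an SE of 0.08 (limma adjusted p = 0.0010), and 68.5% in W/Wv (-0.55, SE 0.08, limma adjusted p = 7.1e-05), and between the models it did not pass (-0.17, limma adjusted p = 0.19). In WT it was below each member in FPKM, and in both models it was above each of them. EDL library 2 had the lowest value of its group for Cst3 and for all 3 members. Cst13, a neighbour of Cst8, was low, with 1.73, 1.30 and 1.66 FPKM in WT from 52 reads and 0 reads in both models. With 3 reads per group as the floor it was at least 19-fold lower in EDL and at least 16.4-fold lower in W/Wv. It entered the test only through its WT values, so its call was bound to be a fall.

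The cystatin list, drawn from the whole superfamily, had 37 genes, of which 7 were in the table and 5 were tested. All 5, the members with Cst3 and Cst13, were lower in EDL and in W/Wv than in WT, with median log2 changes of -5.03 and -9.81 against 0.05 and 0.02 over all genes tested. Since 3 of the 5 are the members, these counts restate them, and Cst8 and Cst13 entered only through WT. Between the models, 1 of the 5, Cst12, was lower and 4 did not pass. Csta1, an intracellular cystatin of the stefin type on chromosome 16, was too low to be tested, with 93 reads in WT, 2 in EDL and 0 in W/Wv, which was at least 29.3-fold lower against the same floor. Stfa2l1, on the same chromosome, had 3 reads in WT and 0 in each model. The other cystatins of the list were not analysed here.

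Among genes of other families within 2 Mb of the members, the table held Kiz and Gzf1. Kiz, which encodes a protein of the centrosome, was at 23.8 ± 0.966 FPKM in WT, 11.7 ± 0.595 in EDL and 10.3 ± 0.601 in W/Wv, and both falls passed (log2 changes -0.96 and -1.14, limma adjusted p = 4.9e-08 and 1.4e-08). Gzf1, a zinc finger protein, was at 12 ± 0.293, 11.3 ± 0.303 and 11.9 ± 0.0574 FPKM and passed in neither comparison with WT (limma adjusted p = 0.16 and 0.82), though edgeR on recovered reads called its EDL value lower (log2 change -0.13, adjusted p = 0.044). Within this window the table held 7 of 85 RefSeq genes, so most neighbours were not analysed here.

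A list of 13 proteases, mostly cysteine cathepsins, with Lgmn and Pcsk2, had 3 genes in the table, all tested. Ctsb, the lysosomal cysteine protease cathepsin B, rose from 103 ± 4.02 FPKM in WT to 127 ± 4.0 in EDL and 122 ± 1.09 in W/Wv (log2 changes 0.30 and 0.24). Lgmn, the asparaginyl protease legumain, which cystatin C also inhibits, rose from 50.8 ± 2.82 to 63.2 ± 1.23 and 65.7 ± 1.80 FPKM (0.31 and 0.37). Ctsa, a serine carboxypeptidase on this list that cystatins are not known to inhibit, fell from 62.0 ± 4.09 to 39.8 ± 1.22 and 37.1 ± 1.0 FPKM (-0.62 and -0.72). Each of these changes passed limma's test with Benjamini-Hochberg adjustment, where 39.4% of all genes tested rose in EDL and 35.3% in W/Wv, and between the models 0 of the 3 passed by limma, edgeR or DESeq2, and 0 had an unadjusted limma p under 0.05. Beside falls of the members to between 3.04% and 0.00691% of WT, these protease changes were small.

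The genes whose profiles over the 9 libraries came nearest to each member were sought by the root mean square difference of log2(FPKM + 1) after subtraction of each gene's own WT mean. For Cst8 the nearest were Lcn8, an epididymal lipocalin, at 1.45, Crisp1, a secreted protein that binds sperm, at 1.85, and Dapl1 at 3.06. For 9230104L09Rik they were Crisp1 at 1.61, Lcn8 at 1.76 and Dapl1 at 2.96. Cst8 and 9230104L09Rik were nearer to each other, at 0.645, than to any of these. No gene came as near to Cst12. Members were left out of these rankings. For Cst12 the 3 nearest were then Dapl1 at 3.22, Crisp1 at 3.54 and Ovch2, a secreted protease, at 3.77. Cst12 differed from Cst8 by 3.17 and from 9230104L09Rik by 3.4. Crisp1, which was lower than WT in both models like the members, moved against Cst12 between the models, with 1.78 ± 0.128 FPKM in EDL and 7.68 ± 2.67 in W/Wv (a log2 difference of 1.6, limma adjusted p = 0.0014; 6.95% of all genes tested were higher in W/Wv).

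Germ cell and sperm genes were set beside the members because the testis also makes CRES. Of 16 such genes listed, 12 were in the table. Of the 12, 6 had 0 reads in EDL and 6 in W/Wv. These sets differed, as Tnp1 had 0 reads only in EDL and Prm2 only in W/Wv. All 9 that were tested were lower than WT in each model, but 7 of them passed the filter only through WT and had to fall. The summed level of the 12 genes was 143 to 149 FPKM in WT, 15 to 16.2 in EDL and 14.3 to 15.9 in W/Wv. Most of the sum in the models came from Odf2, a protein of the sperm tail that is also made in other cells, at 16.5 ± 0.407 FPKM in WT, 13.4 ± 0.309 in EDL and 12.6 ± 0.704 in W/Wv. Without Odf2 the sums were 126 to 132 FPKM in WT, 1.85 to 2.48 in EDL and 2.17 to 2.74 in W/Wv. Most of these sums came in turn from Dkkl1, a protein of the acrosome. Dkkl1 was at 81.9 ± 5.29 FPKM in WT, 1.79 ± 0.278 in EDL and 2.04 ± 0.383 in W/Wv. Prm2, which packs sperm DNA, was at 14.3 ± 1.28 FPKM in WT, and Cst8 was at 2557 in the same libraries. Between EDL and W/Wv, 0 of the 9 passed by limma, edgeR or DESeq2, and 0 had an unadjusted limma p under 0.05. The 7 that passed the filter only through WT were near 0 FPKM in both models, so this comparison could hardly separate them. Prm1, for instance, had 1 read in EDL and 1 in W/Wv. The part of sperm content in the members' levels was not tested.

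The principal cell list gave no single direction. Of 5 principal cell genes tested, 1 was higher, 2 were lower and 2 did not pass in EDL, and 1 was higher, 3 were lower and 1 did not pass in W/Wv. Lcn5 was the gene that rose, to 9752 ± 169 FPKM in EDL and 8035 ± 1270 in W/Wv, while Crisp1 fell from 1498 ± 164 FPKM to the low levels given above. Krt8, a keratin of epithelium, was at 207 ± 3.15, 215 ± 15.2 and 214 ± 11.4 FPKM in WT, EDL and W/Wv and did not pass (limma adjusted p = 0.51 and 0.57). The summed level of the 5 genes, 27053 to 32367 FPKM in WT, 35118 to 37160 in EDL and 30436 to 32251 in W/Wv, thus joins genes that moved in opposite directions. Hba-a1, a marker of erythrocytes, ranged from 8.09 to 97.2 FPKM over the 9 libraries and did not pass (limma adjusted p = 0.20 in EDL and 0.13 in W/Wv). Crisp2, from the list for the distal epididymis, was at 1.37 to 2.04 FPKM in WT and at most 0.173 in the models, and passed the filter only through WT. Of 25 genes of the initial segment and its lumicrine pathway, 8 were in the table and 6 were tested. Crisp1 and Gpx5 are on this list and on that for principal cells. Of these 6, 5 were lower in EDL, where 35.9% of all genes tested were, and 6 in W/Wv, where 35% were. Between the models 1, Crisp1, was higher in W/Wv, as were 6.95% of all genes tested. The part of cell makeup in the members' levels was not tested.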

How the data were processed

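The authors deposited 1 table with an FPKM per gene and library and a normalized count, per the file headers. The authors made this signal, the normalized count, by dividing reads by a factor for each library, which can be read from the low values; the reads behind it were recovered (98.5% to 98.9% of values whole within 0.1 of a read). Libraries came from a stranded mRNA kit per the labels' protocols. TopHat2 2.1.1, Cufflinks 2.2.1 and mm10 appear, per the submitters' processing notes, without stated roles. Not given in the sources used here: how FPKM was scaled, whether counting used strand, and the choice of the 2462 genes.

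Groups came from sample titles. limma 3.58.1 (R 4.3.3, trended and robust empirical Bayes, no block) was fitted to log2(FPKM + 1) of all 9 libraries, for 2013 genes that reached 1 FPKM in 3 or more libraries, with Benjamini-Hochberg adjustment over all of them and a threshold of 0.05. Ratios between members were tested by exact permutation. edgeR 4.0.16 and DESeq2 1.42.0 on the recovered reads, another pseudocount, filter and scaling, a replicate block, fits of only the groups compared and leaving out each library were alternatives. The fits were tested on simulated data. Levels, folds and ranks use FPKM; a floor of 3 reads over the group bounds genes with 0 reads.

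Members and lists were chosen with earlier results of these data known. The text names the members, listed cystatins in the table and table genes within 2 Mb. It also names the 3 nearest profiles per member, members left out, and up to 4 genes of each other list. Gm4926, Dpp7, Tescl, Camk2b, Fga, Mir8102 and Defb38 were chosen after their values were seen. Lists for transglutaminases, basal, narrow and clear cells, smooth muscle, fibroblasts, leukocytes and endothelium had 0 genes in the table and were not analysed here. Of 2462 identifiers, 2454 matched RefSeq GRCm38.p6, the build mm10 names. Promoters were read from RefSeq; coding lengths and identity came from GENCODE M21.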

Additional observations from a re-analysis of the deposited data

How the results depend on the processing

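Each of the 17 alternatives kept the direction and the call of the fall of every member from WT to EDL and from WT to W/Wv, and of Cst12 from EDL to W/Wv. The number of genes that differed between W/Wv and EDL was 281, became 425 in a fit of only the groups compared, and ranged from 174 (without EDL replicate 1 or 3) to 385 (without WT replicate 3) when 1 library was left out; it was 187 without EDL replicate 2 and 181 without W/Wv replicate 1. The W/Wv minus EDL change of 9230104L09Rik ranged from -0.0043, without W/Wv replicate 2, to 1.01 when 1 library was left out. That of Ovch2, 0.0049 with all libraries, ranged from -0.025 (without W/Wv replicate 1) to 0.021 (without W/Wv replicate 2), and was -0.0044 without EDL replicate 1. Lcn8 passed as lower in W/Wv than in EDL without EDL replicate 2 (-0.54), and Dapl1 with a pseudocount of 0.1 (-1.31). Same-numbered libraries did not deviate alike: over 9 such pairs, deviations from the group mean correlated at -0.34 to 0.08. Deviations within a group are tied to each other, so whether libraries shared a batch cannot be told from this. With the numbers as a replicate block, 1485 genes changed in EDL, 1380 in W/Wv and 219 between the models, and Cst12 stayed at -7.05 in the direct comparison (limma adjusted p = 1.2e-06). Depth limits Cst8 in both models and Cst12 in W/Wv, which rest on 37, 24 and 8 reads.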
